A study of Mus musculus with 8 samples.

Results

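Krüppel-like factors (KLFs) are transcription factors with a shared zinc-finger domain. The members described here are Klf2, Klf3, Klf4, Klf6, Klf7, Klf9, Klf10 and Klf13. They were chosen by gene symbol, as KLF genes other than the erythroid factor Klf1, and are 8 of the 29955 gene names of the data.

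The study sequenced RNA of 2 cell populations sorted from mouse bone marrow. LSK cells carry Sca1 and Kit, lack lineage markers and contain the hematopoietic stem cells, and LK cells carry Kit, lack lineage markers and hold the myeloid progenitors. Wild-type (WT) mice and mice lacking Ripk3, the kinase that activates Mlkl in necroptosis, gave 4 groups of 2 libraries each, named WT LSK and WT LK, Ripk3-/- LSK and Ripk3-/- LK. The question was how loss of Ripk3 alters expression in each population. Every mouse was of the background given in the labels as CD57BL6/J. The article describes 4 weekly X-ray doses and collection 1 month after the last, in both genotypes, whereas the labels state that the cells had no treatment. The age of the mice is not given in the sources used here, and neither is whether mice were pooled. The Ripk3-/- mice lack the gene in every cell, so the libraries do not separate effects inside the sorted cells from effects of their surroundings.

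KLFs bind GC-rich DNA, chiefly GC boxes and CACCC boxes, through 3 zinc fingers at the C-terminal end, and differ in the N-terminal part that recruits coactivators or corepressors. Klf2 and Klf4 respond to the MEK5-ERK5-MEF2 kinase pathway and restrain proliferation and inflammatory genes, and Klf4 also drives monocyte maturation. Klf6 is an activator induced by injury, Klf10 is an early target of TGF-beta, Klf9 and Klf13 are related factors that recruit the Sin3a corepressor, Klf9 being induced by glucocorticoids, Klf3 is a repressor that acts through Ctbp proteins, and Klf7 belongs to the same branch as Klf6.

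Libraries held 9782166 to 16280811 reads assigned to genes, so that 1 read was worth 0.0621 to 0.104 units of signal, a read count scaled to library size by the trimmed mean of M values (TMM) and expressed as CPM. Replicates correlated with r = 0.926 in WT LSK, 0.940 in Ripk3-/- LSK, 0.969 in WT LK and 0.970 in Ripk3-/- LK, across genes. Ripk3 signal was 165 ± 3.93 (SD, n = 2) in WT LSK against 2.23 ± 1.63 in Ripk3-/- LSK, and 147 ± 3.90 in WT LK against 13.4 ± 3.93 in Ripk3-/- LK. All 4 WT libraries held Xist reads and none from Y-linked genes, and all 4 Ripk3-/- libraries held Y-linked reads and almost no Xist. Genotype and sex therefore cannot be told apart in any comparison of genotypes. Stem cell markers summed to 2795 to 4116 in LSK and 951 to 1054 in LK, and myeloid progenitor markers to 5811 to 8964 and 51967 to 75428. These are sums of the deposited signal, which was scaled for LSK and LK apart. With all libraries scaled together, 10 of 11 stem cell markers were higher in LSK and 7 of 7 progenitor markers lower, in both genotypes. No source says that the 2 libraries of a group come from separate mice, so p-values measure the spread between libraries. In bulk RNA, fewer cells of a type and less RNA per cell cannot be told apart.

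The members lie on 8 chromosomes. On GRCm38 with GENCODE M21 annotation, all of them protein coding, Klf2 is at chr8:72319033-72321656 on the plus strand, Klf3 at chr5:64803388-64832901 (plus), Klf4 at chr4:55527143-55532466 (minus) and Klf6 at chr13:5861482-5870394 (plus). Klf7 is at chr1:64029447-64122282 (minus), Klf9 at chr19:23141226-23168134 (plus), Klf10 at chr15:38291463-38300706 (minus) and Klf13 at chr7:63886351-63938915 (minus). Exons of Klf3 overlap those of the antisense gene Gm20033, and exons of Klf7 overlap those of Gm13748 and Gm26649. Whether the counting used strand is not given in the sources used here, so reads of these pairs may be mixed. The exons of the other 6 members overlap no other annotated gene.

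RefSeq promoters of GRCm38.p6 were found for 7 members, the exception being Klf10. Motifs were searched on both strands in the 250 bases before the start. A GC box, GGGCGG, was present in 6 of the 7, against 32.7% of 32851 RefSeq promoters of the same length, and CACCC in 5 of the 7, against 52.0%. The CACCC counted for Klf2, 19 bases before the RefSeq start, lies past the GENCODE start and is not in the sequence shown. The core of the cyclic AMP response element, TGACG, was present in 4 of the 7 (Klf2, Klf4, Klf9 and Klf13), against 17.8%, and the full element TGACGTCA in 0 of 7, against 1.55%. An AP-1 site, TGAGTCA or TGACTCA, was in 0 of 7, against 4.46%, and a serum response element in 0 of 7, against 1.47%. A MEF2 site was in 1 of the 7, Klf2, against 0.508% of promoters. These matches describe letters and do not show binding.

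The upstream sequences of Klf2, Klf4 and Klf9 are shown because libraries of Klf2 and Klf4 did not overlap between populations, nor those of Klf9 between genotypes. This trait was not particular to them. Klf6, Klf9 and Klf10 also did not overlap between populations, and Klf3, Klf10 and Klf13 also did not between genotypes. In each genotype 5 of 8 members did not overlap between populations. The share of all genes was not counted for that comparison. By limma, Klf2 did not pass between WT populations, and Klf9 passed between genotypes only when averaged over both populations. Between genotypes, the libraries of 44.6% of tested genes in LSK and 40.0% in LK did not overlap. Klf2 (chr8:72318812-72319032, plus strand, 221 bases, 71.5% GC) has its MEF2 site in capitals, Klf4 (chr4:55532476-55532725, minus strand, 250 bases, 74.0% GC) its GC boxes on either strand, and Klf9 (chr19:23140976-23141225, plus strand, 250 bases, 59.6% GC) its TGACG.
Klf2: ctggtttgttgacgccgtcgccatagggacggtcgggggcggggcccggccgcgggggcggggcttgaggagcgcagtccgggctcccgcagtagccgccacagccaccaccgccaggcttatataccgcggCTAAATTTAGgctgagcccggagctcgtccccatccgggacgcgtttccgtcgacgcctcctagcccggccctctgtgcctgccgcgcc
Klf4: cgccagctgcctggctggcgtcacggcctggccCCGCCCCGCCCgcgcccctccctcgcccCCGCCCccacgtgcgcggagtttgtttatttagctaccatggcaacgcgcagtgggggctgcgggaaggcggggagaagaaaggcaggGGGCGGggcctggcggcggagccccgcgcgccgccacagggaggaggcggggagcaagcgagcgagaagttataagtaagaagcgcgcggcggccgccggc
Klf9: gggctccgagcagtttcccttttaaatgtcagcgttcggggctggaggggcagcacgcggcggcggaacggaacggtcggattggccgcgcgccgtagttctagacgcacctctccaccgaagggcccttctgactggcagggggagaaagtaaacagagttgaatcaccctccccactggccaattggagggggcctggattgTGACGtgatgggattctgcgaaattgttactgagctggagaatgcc

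The MEF2 site of Klf2 reads the same on both strands. Klf4 carries 4 GC boxes, 2 of which overlap. The Klf9 sequence has no GC box and a lower GC content than the other 2.

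The levels of the members covered a wide range, from Klf6 to the weakly expressed Klf7. The 8 members held 0.161% to 0.1997% of the reads in LSK libraries and 0.0768% to 0.105% in LK libraries, and Klf6 alone held 45.5% to 62.4% of the reads of the members. Levels of different genes were compared per length, as RPKM over the merged exons, on one scale for all 8 libraries (mean ± SD, n = 2). Merged exons span 11243 bases for Klf3 and 4179 for Klf10, against 5221 and 3044 in their longest transcripts. For Klf2 both lengths are 1847 bases. Klf3 and Klf10 would thus stand higher per base of their longest transcript, and the orders below hold for merged exons only. Klf6 was highest in each group, from 118 ± 0.738 in Ripk3-/- LK to 186 ± 21.4 in WT LSK.

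In WT LSK, Klf10 (106 ± 0.510 RPKM) and Klf2 (104 ± 4.05) followed, and their libraries overlapped. Klf4 came next at 31.7 ± 0.948 RPKM, then Klf9 (10.9 ± 1.502) and Klf13 (10.7 ± 0.269), which overlapped, then Klf3 (2.55 ± 0.127) and Klf7 (0.874 ± 0.144). In Ripk3-/- LSK the order of Klf2 (114 ± 18.2 RPKM) and Klf10 (52.1 ± 12.5) was separated, with both Klf2 libraries above both Klf10 libraries. Klf4 followed at 32.2 ± 7.02 RPKM, and Klf13 (6.41 ± 0.654) and Klf9 (5.88 ± 0.624) overlapped above Klf3 (3.99 ± 0.550), with Klf7 last at 0.937 and 1.06.

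The WT LK order was Klf6, Klf2 (67.3 ± 1.57 RPKM), Klf10 (56.6 ± 6.41), Klf13 (15.6 ± 9.90), Klf9 (8.23 ± 1.67), Klf4 (5.56 ± 1.80), Klf3 (2.55 ± 0.384) and Klf7 (0.841 ± 0.354), and among neighbours the libraries of Klf13 and Klf9 overlapped. In Ripk3-/- LK, Klf10 (35.2 ± 3.24 RPKM) and Klf2 (34.9 ± 15.3) overlapped, and Klf13 (6.32 ± 0.771) and Klf4 (5.59 ± 0.116) did not. Klf3 (3.49 ± 0.960 RPKM) and Klf9 (3.41 ± 0.632) overlapped, and Klf7 was lowest at 0.970 ± 0.570. Klf4 was above Klf13 and Klf9 in both LSK groups and below Klf13 in both LK groups.

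**Figure D1:**
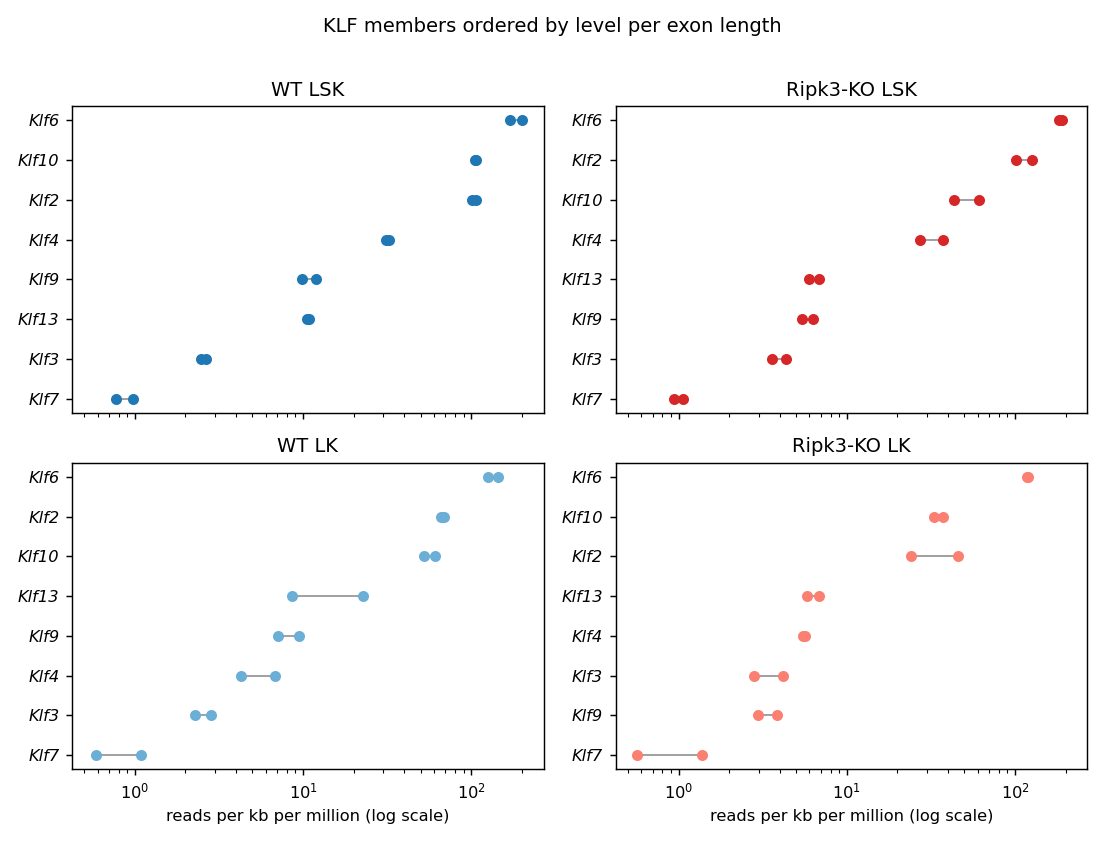
Members ordered by mean RPKM in each group (horizontal log axis, reads per kb of exon scaled to library size), with 1 point per library and a line joining the 2 libraries of a group. Klf6 leads and Klf7 is last in all 4 groups, and Klf13 in WT LK has the widest pair among members above 5 RPKM.

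Loss of Ripk3 came with lower Klf10 in LSK cells. Klf10 signal was 506 and 503 in the WT LSK libraries and 288 and 206 in the Ripk3-/- LSK libraries. Both Ripk3-/- libraries lay below both WT libraries, and the WT pair was nearly equal. The log2 difference was -1.05 (SE 0.190, 95% interval -1.44 to -0.651), a 2.07-fold lower level, with a limma adjusted p of 0.0034. Klf10 was the 1 member of 8 that passed an adjusted p of 0.05, where 2.16% of the 16817 tested genes passed. Leaving out a library raised the adjusted p to 0.0605 (without WT LSK replicate 1), 0.0735 (without WT LSK replicate 2) and 0.0910 (without Ripk3-/- LSK replicate 2), and left it at 0.00872 without Ripk3-/- LSK replicate 1. Without a trend in the prior variance it was 0.148.

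Klf9 and Klf13 had lower values in Ripk3-/- LSK without passing the test. Klf9 signal was 54.0 and 65.7 in WT against 29.6 and 34.8 in Ripk3-/- LSK, a log2 difference of -0.87 (SE 0.321, limma adjusted p = 0.159). Klf13 signal was 90.1 and 93.3 in WT against 50.6 and 59.2 in Ripk3-/- LSK, a log2 difference of -0.73 (SE 0.321, adjusted p = 0.237). For both genes the 2 Ripk3-/- libraries lay below the 2 WT libraries.

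Klf3, the Ctbp-binding repressor, had the opposite direction. Its signal was 31.6 and 33.9 in WT against 55.5 and 46.3 in Ripk3-/- LSK, a log2 difference of 0.62 (SE 0.312, limma adjusted p = 0.305), with no overlap. In all, 4 of the 8 members had LSK libraries that did not overlap between genotypes, where 44.6% of all tested genes had none, so the share among the members is near the background.

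The remaining members had overlapping LSK libraries. Klf6 signal was 853 and 1004 in WT against 898 and 950.4 in Ripk3-/- LSK, and its log2 difference was 0.00 with a 95% interval of -0.314 to 0.309. Klf4 signal was 108 and 113 in WT against 93.9 and 129.7 in Ripk3-/- LSK, and Klf2 signal was 225 and 213 against 210.4 and 267. The widest interval was that of the weakly expressed Klf7, from -0.986 to 1.34, with signals of 9.04 and 7.15 in WT against 8.60 and 9.88 in Ripk3-/- LSK.

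**Figure D2:**
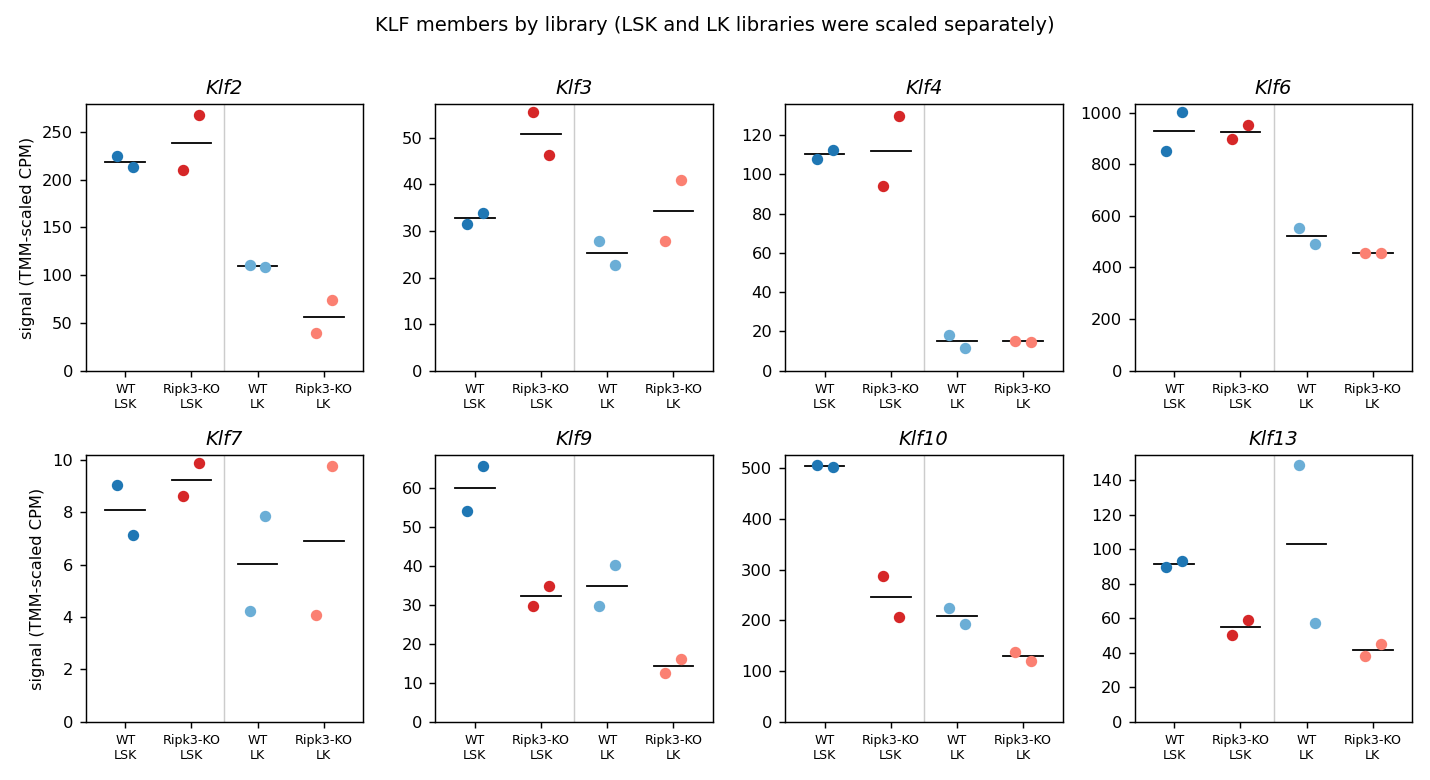
Deposited signal (TMM-scaled CPM, linear axis from 0) of each member, with 1 point per library, replicate 1 at the left, and a bar at the mean of 2 libraries. Klf10, Klf9 and Klf13 are lower in both Ripk3-/- libraries of each population, Klf4 is several times higher in LSK than in LK, and the WT LK libraries of Klf13 stand at 149 and 57.1. LSK and LK values are on separate scales.

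In LK cells, 5 of the 8 members had lower values in both Ripk3-/- libraries and 1 had higher values, and none passed the limma test. Libraries of 40.0% of all tested LK genes did not overlap between genotypes. An adjusted p under 0.05 was reached by 0 of 8 members, and by 0.473% of 13949 genes. At an unadjusted p under 0.05, 4 members stood out (Klf2, Klf9, Klf10 and Klf13), where 6.56% of genes did. The edgeR quasi-likelihood test of the recovered reads called 0 members (0.430% of genes), and the DESeq2 Wald test called the same 4 (1.27% of genes), with adjusted p = 0.0102 for Klf9, 0.0165 for Klf13, 0.0201 for Klf2 and 0.0278 for Klf10.

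Klf2 signal was 111 and 108 in WT LK against 39.1 and 73.7 in Ripk3-/- LK. The WT pair was nearly equal and the Ripk3-/- pair was wide, with a gap larger than that of 84.8% of genes. The log2 difference was -1.01 (SE 0.242, 95% interval -1.52 to -0.511, limma adjusted p = 0.0698). It was -1.46 (adjusted p = 0.00759) without Ripk3-/- LK replicate 2 and -0.57 (adjusted p = 1) without Ripk3-/- LK replicate 1, so that 1 library decides the call. With only the 4 LK libraries in the fit the adjusted p was 0.0399.

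Klf9 signal was 29.8 and 40.1 in WT LK against 12.6 and 16.2 in Ripk3-/- LK, a log2 difference of -1.22 (SE 0.326, limma adjusted p = 0.144). Klf10 signal was 224 and 193 in WT LK against 138 and 119.9 in Ripk3-/- LK, a log2 difference of -0.69 (SE 0.189, adjusted p = 0.165). Neither gene had overlapping libraries, and neither passed the test with any 1 library left out.

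Klf13 signal was 149 and 57.1 in WT LK against 38.3 and 45.1 in Ripk3-/- LK. WT LK replicate 1 stood far above replicate 2, a gap larger than that of 94.8% of genes. The log2 difference was -1.13 (SE 0.318, limma adjusted p = 0.192). It became -0.45 (adjusted p = 1) without WT LK replicate 1 and -1.82 (adjusted p = 0.00291) without WT LK replicate 2, which makes Klf13 in LK the member most dependent on 1 library.

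Klf3 was listed at 27.79 and 22.7 in WT LK against 27.84 and 40.9 in Ripk3-/- LK, a log2 difference of 0.41 (SE 0.316, limma adjusted p = 0.898), the libraries separated by less than 1 read's worth of signal at their nearest point. Klf6 was at 553 and 490.3 in WT LK and 456 in each Ripk3-/- LK library, a log2 difference of -0.19 (SE 0.152, adjusted p = 0.901). Klf4 (18.3 and 11.6 against 15.2 and 14.7) and Klf7 (4.21 and 7.86 against 4.06 and 9.75) overlapped.

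Klf9, Klf10 and Klf13 were lower without Ripk3 in a contrast averaged over LSK and LK that was chosen after the data were seen. It rests on the same libraries as the contrasts within populations and is not independent of them. The mean log2 difference was -0.87 for Klf10 (SE 0.134, 95% interval -1.15 to -0.589, limma adjusted p = 0.000553), -1.05 for Klf9 (SE 0.229, interval -1.52 to -0.571, adjusted p = 0.0183) and -0.93 for Klf13 (SE 0.226, interval -1.40 to -0.465, adjusted p = 0.0349). These 3 of 8 members passed, where 1.64% of 15901 genes did. The 4 Ripk3-/- libraries lay beyond the WT libraries of their own population, in the same direction, for 4 members (these 3 lower, Klf3 higher) and for 10.6% of genes.

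Of the 3 members, Klf10 alone kept an adjusted p under 0.05 whichever of the 8 libraries was left out (0.000246 to 0.00904). Klf9 lost it without WT LSK replicate 2 (0.0861), Ripk3-/- LSK replicate 1 (0.0533), WT LK replicate 2 (0.102) or Ripk3-/- LK replicate 1 (0.124). Klf13 kept it only without WT LK replicate 2 (0.00101), and its mean log2 difference was -0.59 (adjusted p = 0.285) without WT LK replicate 1. Without a trend in the prior variance none of the 3 passed by limma (adjusted p = 0.185 for Klf10, 0.151 for Klf9 and 0.324 for Klf13). With no filter on low values Klf9 (0.0983) and Klf13 (0.253) did not pass, and with a pseudocount of 0.1 Klf13 (0.0618) did not. Klf3 (0.52, SE 0.222, limma adjusted p = 0.306) and Klf2 (-0.45, SE 0.172, adjusted p = 0.237) did not pass.

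The genotype differences of the 2 populations were also compared with each other. None of the 8 members passed limma for this difference, where 0.358% of 15901 genes did. At an unadjusted p under 0.05 there was 1 member, Klf2, against 10.1% of genes, and edgeR (0.340% of genes) and DESeq2 (0.968%) called 0 members. The LSK difference of Klf2 exceeded its LK difference by 1.13 on the log2 scale (SE 0.345, 95% interval 0.413 to 1.84, limma adjusted p = 0.240). The corresponding values were 0.40 for Klf13 (interval -0.540 to 1.33), 0.35 for Klf9 (interval -0.602 to 1.30) and -0.36 for Klf10 (interval -0.915 to 0.201), so that differences of the size measured for Klf2 lie inside 2 of these 3 intervals.

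**Figure D3:**
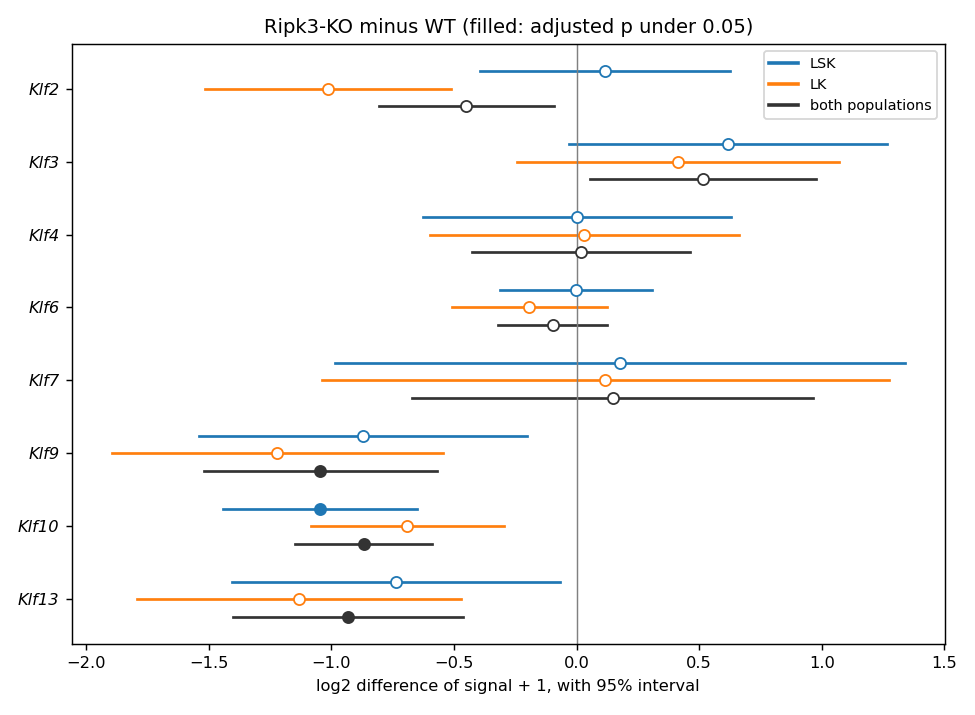
Ripk3-/- minus WT as a log2 difference of signal plus 1 (horizontal axis) with its 95% interval, for each member in LSK, in LK and averaged over both. Filled points passed an adjusted p of 0.05, which are Klf10 in LSK (-1.05) and Klf9, Klf10 and Klf13 over both populations.

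Klf4 was the member that most separated LSK from LK. For this comparison all 8 libraries were scaled together (CPM), since the deposited scale was set for LSK and LK apart. Klf4 was at 94.7 and 98.7 CPM in WT LSK against 20.8 and 13.1 in WT LK, and at 83.2 and 113 in Ripk3-/- LSK against 17.3 and 16.8 in Ripk3-/- LK. Every LSK library lay far above every LK library in both genotypes. The log2 difference was 2.48 in WT (5.57-fold, SE 0.304, limma adjusted p = 4.11e-06) and 2.44 in Ripk3-/- cells (5.44-fold, SE 0.305, adjusted p = 3.61e-06). Among WT libraries 3 of 8 members passed and all 3 were higher in LSK (23.9% of 15950 genes passed in either direction), and among Ripk3-/- libraries 4 of 8 passed, all higher in LSK (20.2% of 15237 genes).

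Klf10 was at 444 and 441 CPM in WT LSK against 255 and 218 in WT LK, a log2 difference of 0.91 (SE 0.193, limma adjusted p = 0.00175). In Ripk3-/- cells it was at 255 and 181 CPM in LSK against 157 and 137 in LK, a log2 difference of 0.55 (SE 0.194, adjusted p = 0.0492). The second call was lost without Ripk3-/- LSK replicate 1 (0.30, adjusted p = 0.361), Ripk3-/- LK replicate 1 (0.64, 0.0931) or Ripk3-/- LK replicate 2 (0.45, 0.303), with a pseudocount of 0.1 (0.0588) and with no filter on low values (0.118). Without a trend in the prior variance neither call was kept (adjusted p = 0.0732 in WT and 0.251 in Ripk3-/- cells).

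Klf2 was at 198 and 187 CPM in WT LSK against 126 and 122 in WT LK, a log2 difference of 0.63 (SE 0.245, limma adjusted p = 0.0653). In Ripk3-/- cells it was at 186 and 234 CPM in LSK against 44.5 and 84.5 in LK, a log2 difference of 1.75 (SE 0.245, adjusted p = 1.61e-05). The libraries did not overlap in either genotype, as for 5 of the 8 members in each. The gap between these values is the genotype difference between populations given above, which did not pass.

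Klf6 was at 749 and 882 CPM in WT LSK against 631 and 553 in WT LK, a log2 difference of 0.46 (SE 0.155, limma adjusted p = 0.0353). The call was lost without WT LSK replicate 2 (adjusted p = 0.214), WT LK replicate 1 (0.0723) or WT LK replicate 2 (0.186), and with no filter on low values (0.0773). In Ripk3-/- cells Klf6 was at 796 and 831 CPM in LSK against 518 and 522 in LK, a log2 difference of 0.65 (SE 0.155, adjusted p = 0.00433). Without a trend in the prior variance the adjusted p was 0.229 in WT and 0.139 in Ripk3-/- cells.

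Klf9 did not pass, with log2 differences of 0.41 (SE 0.326, limma adjusted p = 0.368) in WT and 0.76 (SE 0.326, adjusted p = 0.110) in Ripk3-/- cells. Klf13 was at 79.1 and 81.9 CPM in WT LSK against 169.8 and 64.4 in WT LK, so that the LSK libraries lay between the LK libraries, and its log2 difference of -0.38 (SE 0.320) became -1.07 (adjusted p = 0.0247) without WT LK replicate 2 and 0.32 without WT LK replicate 1. Klf3 and Klf7 had overlapping libraries in both genotypes. The median of all genes was 0.08 in WT and 0.00 in Ripk3-/- cells on the joint scale, and 0.41 and 0.34 on the deposited scale, on which 4 and 5 members passed.

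**Figure D4:**
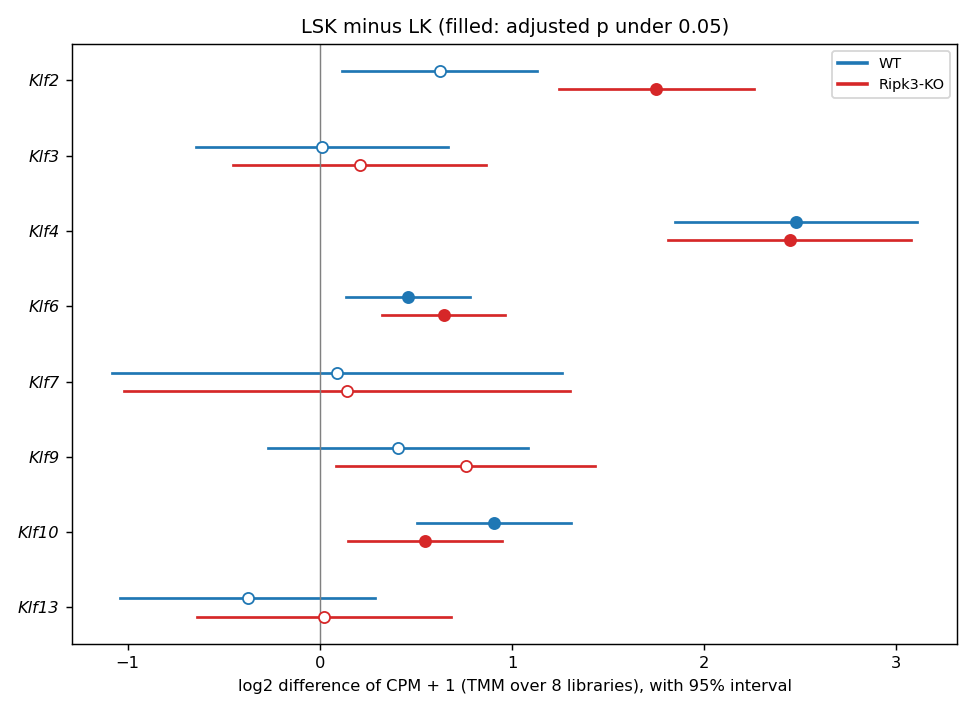
LSK minus LK as a log2 difference of CPM plus 1, all libraries scaled together (horizontal axis), with 95% intervals, for WT and for Ripk3-/- cells. Klf4 is the farthest from 0 in both genotypes (2.48 and 2.44), and Klf2 is at 0.63 in WT and 1.75 in Ripk3-/- cells.

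Some other measures moved with genotype beside the members. Markers of maturing neutrophils summed to a signal of 710 to 770 in WT LSK and 2349 to 2780 in Ripk3-/- LSK, and to 774 to 781 in WT LK and 1685 in both Ripk3-/- LK libraries. Of 9 such markers in the files, 7 were called higher in LSK (2.16% of all genes passed) and 5 in LK (0.473%), and none was at 0 in any library. Erythroid markers summed to 186 and 208 in WT LSK against 213 and 218 in Ripk3-/- LSK, and in the other direction to 1386 and 1586 in WT LK against 1061 and 1102 in Ripk3-/- LK. Most of the LK sum is Car1 (1025 and 1243 in WT, 824 and 829.9 in Ripk3-/-), which also stands in the myeloid progenitor list. Of 7 tested erythroid markers, 3 were higher and 4 lower in LSK, and 1 was higher and 6 lower in LK. The sums of T cell markers were lower in Ripk3-/- libraries of both populations (21.0 and 26.04 against 33.6 and 34.8 in LSK, 3.29 and 4.50 against 7.88 and 10.5 in LK). Singly, 4 of 6 tested T cell markers were lower and 2 higher in LSK, and 3 of 4 lower and 1 higher in LK. Replicates 1 and 2 of WT LSK were uneven for Cd8b1 (11.8 and 1.66) and Cd4 (0.794 and 14.5). The sums of stromal markers were lower in Ripk3-/- LSK (21.9 and 25.3 against 41.0 and 63.0) and higher in Ripk3-/- LK (9.87 and 10.97 against 8.32 and 8.42). Of 4 stromal markers, 3 were lower and 1 higher in LSK, and 3 higher and 1 lower in LK. None of the genes of these 3 lists passed in LSK or LK. Of their genes, Cd8a was at 0 in WT LSK replicate 1 and Ripk3-/- LK replicate 1, and Cd3d in Ripk3-/- LK replicate 2. The sums of B cell (48.7 to 101), megakaryocyte (127 to 225), monocyte (73.5 to 484) and endothelial markers (144 to 406) are ranges over all 8 libraries. Of tested B cell markers, 5 of 6 were lower in Ripk3-/- LSK (median log2 difference -0.956) and 2 of 3 in Ripk3-/- LK. For megakaryocyte markers 3 of 4 were lower in each population. Of 7 monocyte markers, 4 were higher and 3 lower in LSK, with Cd14 called lower, and 2 higher and 5 lower in LK. Endothelial markers were 3 higher and 3 lower in each population. Stem cell markers summed to 2795 and 2880 in WT LSK against 3743 and 4116 in Ripk3-/- LSK, with 10 of 11 higher and 1 called, and myeloid progenitor markers to 7990 and 8964 against 5811 and 7319.6, with 6 of 7 lower and 1 called. The called stem cell and progenitor markers, named after their values were seen, were Flt3 (0.78, limma adjusted p = 0.0298) and Gata1 (-1.32, adjusted p = 0.0128). In LK, 7 of 7 progenitor markers were lower and 8 of 11 stem cell markers higher, with 0 called by limma. The part of any of these in the KLF values was not tested.

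Transcript base content is another such measure. The longest transcripts of the members range from 42.4% GC (Klf6) to 61.6% (Klf2), with Klf13 at 55.5% and Klf9 and Klf10 at 47.5% and 46.9%. In LK, the median log2 difference between genotypes was 0.09 in the lowest of 5 equal bins of GC content and -0.11 in the highest. With the trend of each library on GC content and length removed, an alternative chosen after the data were seen, the LK difference of Klf2 was -0.77 (limma adjusted p = 0.237) and that of Klf10 in LSK was -1.01 (adjusted p = 0.00369). Averaged over both populations, Klf9 (adjusted p = 0.0160) and Klf10 (0.00037) passed after that removal. Klf13 did not (0.0622), although its difference was -0.92 after the removal and -0.93 before it.

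Between genotypes, the rest of the KLF and SP family showed 1 further case over both populations. Of 18 such genes 15 were tested in LSK and 12 in LK, and 0 passed in either by limma. Klf11, the closest relative of Klf10 and like it a TGF-beta-inducible repressor, was at 216 and 159 in WT LSK against 112 and 98.4 in Ripk3-/- LSK (log2 difference -0.81, SE 0.216, limma adjusted p = 0.0532), and at 106 and 119.7 in WT LK against 86.2 and 78.7 in Ripk3-/- LK (-0.45, SE 0.215, adjusted p = 0.757). Averaged over both populations it fell by 0.63 on the log2 scale (SE 0.153, adjusted p = 0.0368), and was the 1 of 14 genes of the list to pass there. Smad7, Cd14, Klf1 and Car1 each stand in 2 of the lists used here. Sp1 (0.76, adjusted p = 0.150) and Klf15 (-1.61, adjusted p = 0.192) did not pass in LSK. Klf1, the erythroid activator, did not pass in LK (-0.68, adjusted p = 0.764), and had a log2 difference of -3.54 between WT LSK and WT LK (adjusted p = 1.1e-07).

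The upstream pathways had few calls between genotypes. In the MEK5-ERK5-MEF2 list, 0 of 12 genes passed in LSK and 0 of 11 in LK. The smallest adjusted p-values in LSK were 0.270 for the transcription factor Mef2c (0.40), 0.279 for Mef2d (0.62) and 0.282 for the MEK5 gene Map2k5 (0.52), and Map3k3, which activates MEK5, had -0.65 in LK (adjusted p = 0.815). In the TGF-beta list, 0 of 7 passed in either population, with the receptor genes Tgfbr1 (1.003, adjusted p = 0.202) and Tgfbr2 (0.65, adjusted p = 0.321) in LSK and Smad7 (-0.91, adjusted p = 0.760) and Smad2 (-0.35, adjusted p = 0.869) in LK. In the glucocorticoid list 3 of 6 tested genes were lower and 3 higher in LSK. By limma 1 gene was called, as lower, where 2.16% of all genes passed. It was the kinase gene Sgk1, at 75.7 and 48.8 in WT against 27.5 and 18.8 in Ripk3-/- LSK (-1.38, SE 0.320, limma adjusted p = 0.0253). Over both populations its difference was -1.13 (adjusted p = 0.00894). Fkbp5, a receptor co-chaperone, had -1.18 in LK (adjusted p = 0.165), and Ddit4 (1.10, adjusted p = 0.354) and Zbtb16 (-0.91, adjusted p = 0.373) did not pass in LSK.

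Of the proteins that KLFs bind, Ctbp1, a corepressor used by Klf3, behaved differently in the 2 populations. Its signal was 86.6 and 65.4 in WT against 145 and 144 in Ripk3-/- LSK, and 210.5 and 119 in WT against 37.5 and 76.4 in Ripk3-/- LK. It fell in LK (-1.54, SE 0.294, limma adjusted p = 0.0125), and the difference between the populations passed (2.48, SE 0.418, adjusted p = 0.00595). In LSK 0 of the 14 genes of the list were called, so the higher Ctbp1 values there did not pass. The LK replicates were uneven, and dependence on a single library was not checked for this gene. In the genotype contrasts Ctbp1 was the 1 called gene of the 14 in the list (0.473% of all genes passed in LK and 0.358% for the difference). Between populations 3 of the 14 were called in each genotype, near the share of all genes (23.9% in WT and 20.2% in Ripk3-/- cells). Hdac2 (0.97, adjusted p = 0.123) and Ncor1 (0.56, adjusted p = 0.599) did not pass for the difference between the populations, nor did Crebbp in LSK (0.85, adjusted p = 0.141). Among 7 ubiquitin ligases of KLF proteins, Btrc rose in LSK (limma adjusted p = 0.0448) from 0.298 and 0.311, which is 3 reads in each library, to 6.43 and 5.18, and passed over both populations (adjusted p = 0.0439). Itch (0.92 in LK, adjusted p = 0.275), Wwp1 (0.98 in LSK, adjusted p = 0.254) and Siah1a (1.20 for the difference, adjusted p = 0.595) did not pass.

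Of 11 genes described as KLF targets in other cells, 6 were called between populations in each genotype (4 higher and 2 lower in LSK). Of all genes, 23.9% passed in WT and 20.2% in Ripk3-/- cells. Between genotypes in LSK, 2 of 11 were called lower and 0 higher (2.16% of all genes passed). By direction 6 were lower and 5 higher, with a median of -0.23 (the median of all genes was -0.01). In LK 0 of 10 passed, and 0.473% of all genes. Cdkn1a, which encodes the cell cycle inhibitor p21, was at 366 and 382 in WT against 165 and 135 in Ripk3-/- LSK (-1.32, SE 0.211, limma adjusted p = 0.00103). Cd14, a receptor for lipopolysaccharide, was at 19.8 and 13.8 in WT against 3.13 and 3.62 in Ripk3-/- LSK (-2.003, SE 0.387, adjusted p = 0.00636). Thbd, encoding thrombomodulin, had -1.82 in LSK (adjusted p = 0.121), and S1pr1, the egress receptor induced by Klf2 in T cells, had -1.42 for the difference between populations (adjusted p = 0.311).

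Among 22 immediate-early and handling response genes, 4 were called lower and 0 higher in LSK, where 2.16% of all genes passed. By direction 11 were lower and 11 higher, with a median of -0.03. In LK 7 of 21 were called lower and 0 higher, where 0.473% of all genes passed. By direction 17 were lower and 4 higher, with a median of -0.52 (the median of all genes was 0.01). The summed signal of the list was 27458 to 31152 in LSK and 9749 to 12414 in LK. Atf3, a stress-induced transcription factor, was at 528 and 557 in WT against 236 and 185 in Ripk3-/- LSK (-1.37, SE 0.191, limma adjusted p = 0.000226). The heat shock genes Hspa1a (-1.78, adjusted p = 0.000277) and Hspa1b (-1.58, adjusted p = 0.00027) also fell in LSK, and since these are near-identical copies their reads may be split uncertainly. Jund, an AP-1 subunit, was at 631 and 379.8 in WT against 51.7 and 197 in Ripk3-/- LK (-2.26, SE 0.358, adjusted p = 0.00227), and its LSK and LK differences diverged by 2.55 (adjusted p = 0.0222). Dependence on a single library was not checked for Jund, whose LK replicates were uneven. The part of handling in the KLF values was not tested.

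**Figure D5:**
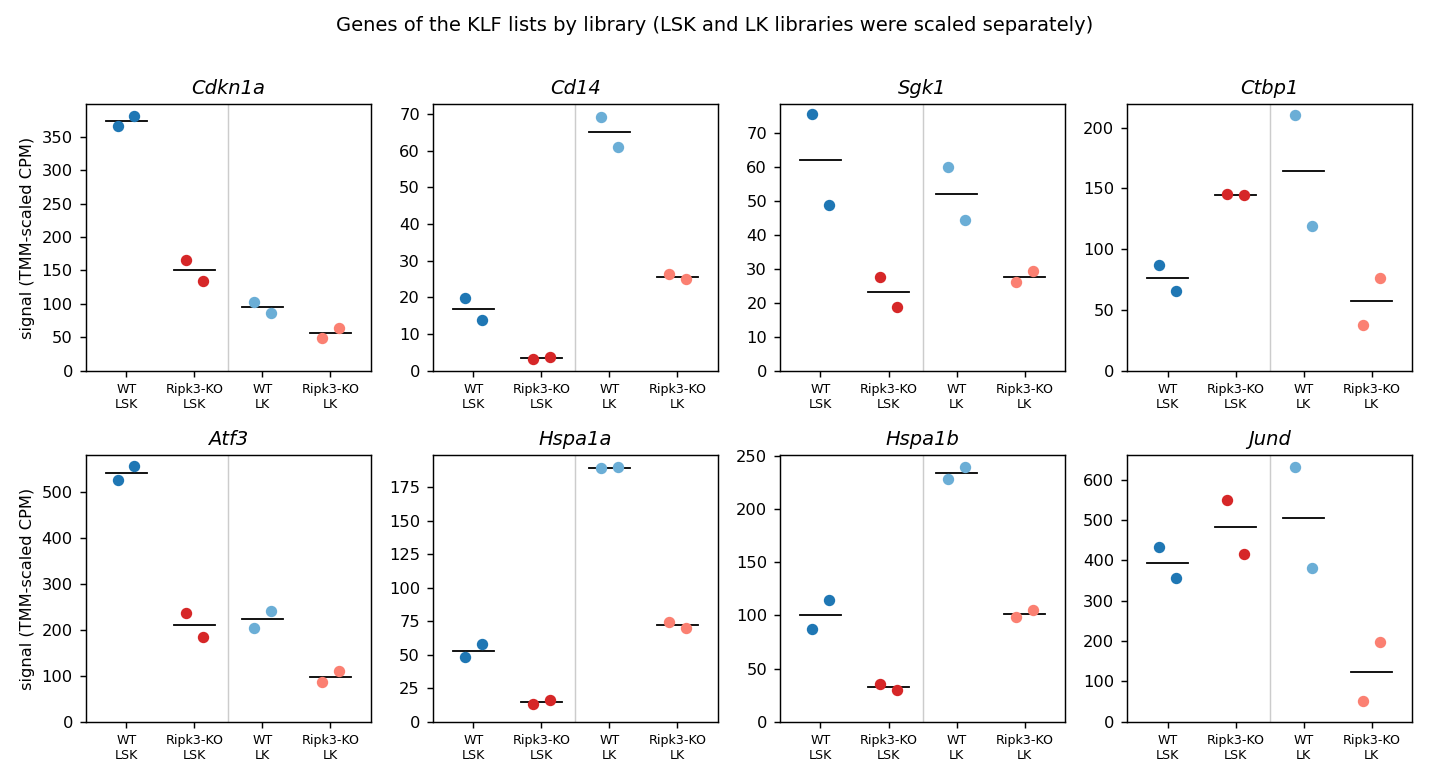
Deposited signal (linear axis from 0) of 8 genes from the KLF lists, 1 point per library, replicate 1 at the left, with a bar at the mean of 2 libraries. Cdkn1a, Cd14, Sgk1, Atf3, Hspa1a and Hspa1b are lower in both Ripk3-/- libraries of each population, and Ctbp1 is higher in Ripk3-/- LSK and lower in Ripk3-/- LK.

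Genes of like pattern were sought for the 3 members with the widest range over the 8 libraries, Klf4 (3.02 log2 units), Klf2 (2.37) and Klf9 (1.94). Among 10700 genes with a mean of at least 5 CPM, likeness was the root mean square difference of log2 profiles, each centered on its own mean over the 8 libraries. The nearest to Klf4 were Tnfrsf18 (0.178), Thsd1 (0.197) and the transcript named AK038627 (0.212). Tnfrsf18 was at 54.2 and 68.5 CPM in WT LSK, 63.7 and 77.8 in Ripk3-/- LSK, 17.0 and 10.2 in WT LK against 9.80 and 10.7 in Ripk3-/- LK, high in LSK and low in LK as Klf4 was.

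The nearest to Klf2 were Pura (0.155), Aldh1a1 (0.190) and Nfkbiz (0.202). Nfkbiz was at 246 and 234 CPM in WT LSK, 200.2 and 216 in Ripk3-/- LSK, 104 and 121 in WT LK against 48.8 and 76.2 in Ripk3-/- LK, with Ripk3-/- LK replicate 1 lowest, as in Klf2. The nearest to Klf9 were Cxcl2 (0.139), Oas1a (0.213) and Ccnl1 (0.219). Cxcl2 was at 65.2 and 73.8 CPM in WT LSK, 33.5 and 35.9 in Ripk3-/- LSK, 44.1 and 54.9 in WT LK against 19.6 and 18.4 in Ripk3-/- LK, lower in all 4 Ripk3-/- libraries than in the WT libraries of the same population.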

How the data were processed

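RNA of LSK and LK cells was sequenced with a stranded mRNA kit, 2 libraries a group. Per the submitters' processing notes TopHat and mm9 were used. The deposited signal values, headed FPKM by the authors, are whole reads (within 0.01) times 1 factor a library, that is, CPM scaled by TMM with LSK and LK scaled separately, and library sizes of 9782166 to 16280811 reads set their precision. No column was left unused (0). Groups came from the labels.

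Genotypes were compared with limma 3.58.1 (R 4.3.3), two-sided with a variance trend, on log2(signal + 1) of genes with a mean of at least 1, fitted on all 8 libraries with Benjamini-Hochberg adjustment over all tested genes (threshold 0.05). Fold changes are on that scale, which understates low genes. Populations were compared on recovered reads rescaled by TMM over 8 libraries. Members and lists were chosen with earlier results of these data known. Named are all members, Ripk3, called genes of each list filled up to 4 by smallest p (lists with more called genes by 4 and a count), and the 3 nearest profiles of 3 members. Alternatives were edgeR 4.0.16, DESeq2 1.42.0, other scalings, filters, pseudocounts, variance priors, blocks and left-out libraries, and, added after the data were seen, the contrast over both populations, removal of GC and length trends, and a crossed pairing. The scripts were tested on simulated data. Protein sequences were not used here.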

Additional observations from a re-analysis of the deposited data

How the results depend on the processing

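Each group held 2 libraries, so a left-out library leaves a lone sample that is assumed to vary like the other groups. The number of members called in LSK (1) was 0 without a trend in the prior variance and 0 to 1 over the left-out libraries. In LK (0) it was 1 with only the 4 LK libraries, 4 by the DESeq2 Wald test and 0 to 1 over the left-out libraries. Without the trend it was 1 for WT LSK against LK (3) and 2 for Ripk3-/- LSK against LK (4). Over both populations (3) it was 1 with no filter on low values, 0 without the trend and 1 to 2 over the left-out libraries. The cause of these shifts was not tested, apart from the fewer samples in the left-out fits.

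No called member changed sign under any alternative run. Uncalled values did. By quantile normalization Klf4 was -0.10 in LSK and -0.0067 in LK, Klf6 0.21 in LSK, Klf7 -0.042 in LK, -0.52 between WT populations and -0.18 between Ripk3-/- populations, Klf9 -0.0065 for the difference between genotype effects, and Klf13 0.051 between WT populations. Klf4 in LSK was -0.028 with DESeq2 size factors and -0.014 by the DESeq2 Wald test, and in LK -0.0038 by edgeR and -0.013 by DESeq2. Klf6 in LSK was 0.0018 with TMM over 8 libraries. With GC and length trends removed, Klf7 was -0.074 in LK and -0.21 between WT populations, Klf3 -0.085 between WT populations, and Klf13 -0.025 between Ripk3-/- populations.

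Over the left-out libraries, values in LSK ran from -0.057 to 0.29 for Klf2, -0.23 to 0.23 for Klf4 and -0.12 to 0.11 for Klf6. In LK they ran from -0.27 to 0.34 for Klf4 and -0.43 to 0.66 for Klf7. Klf13 ran from -0.29 to 1.08 for the difference between genotype effects. Between WT populations the ranges were -0.14 to 0.16 for Klf3, -0.29 to 0.47 for Klf7 and -1.07 to 0.32 for Klf13, and between Ripk3-/- populations -0.070 to 0.48 for Klf3, -0.42 to 0.70 for Klf7 and -0.10 to 0.14 for Klf13.

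Counts over all genes moved too. In LSK, 363 genes became 120 without the trend, 198 with no filter, 195 with 4 libraries, 237 by edgeR and 617 by DESeq2. In LK, 66 became 3, 9 with no filter, 36 by quantile normalization, 125 with 4 libraries and 177 by DESeq2, and for the difference 57 became 2, 3 with no filter and 154 by DESeq2. Over both populations 260 became 38, 62 with no filter and 526 by DESeq2. Between WT populations 3814 became 1998, and 1918 by quantile normalization, and between Ripk3-/- populations 3072 became 1494.

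Labels give both libraries of a group the numbers 1 and 2, but same-numbered libraries did not deviate together (correlations of -0.145 to 0.051). With the replicate block the members called were 1 in LSK, 0 in LK, 0 for the difference, 3 and 4 between populations and 3 over both. A crossed pairing of Ripk3-/- LSK and LK, added after the data were seen, called 4 members and 4263 genes, against 2940 with the block.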
